A study of Mus musculus with 6 samples.

Results

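The guanylate-binding proteins are a family of 8 listed mouse genes, Gbp2 to Gbp9, and they were read here in ovarian secondary follicles of young and old mice. A listed gene counted as measured where a probe set of the array carried its symbol and no other. That was so for 5 of the 8, Gbp2, Gbp3, Gbp6, Gbp7 and Gbp8, with 8 probe sets between them, among 18193 genes with a probe set of their own. Gbp4 shared its only listed probe set with Gbp8, and Gbp5 and Gbp9 were not analysed here. The family was chosen by the difference between old and young follicles measured on these same arrays, so that difference is described for its genes and not tested. The question behind the comparison was which transcripts change in growing follicles while the ovary ages.

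Young follicles came from female C57BL/6J mice at 9 weeks and old follicles from female C57BL/6J mice at 32 weeks. No transgene or treatment was named in either group. The paper describes the mice as specific pathogen-free, but proposes from its virus and interferon response genes that they might have carried a viral infection. Infection was not tested here. The follicles were dissected mechanically and taken with an intact basal membrane and a central oocyte, and total RNA from 3 samples of each age was hybridized to Affymetrix arrays. The sources used here do not say how many mice or follicles went into a sample, so p-values measure only the spread between these samples, part of which may be technical, and 3 arrays per age limit the precision. Each probe set gathers several short probes near the 3' end of a transcript. Its level is given as log2 of the intensity computed by the robust multiarray average (RMA).

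Guanylate-binding proteins are large GTPases of the dynamin superfamily that cells make when interferon reaches them. They bind GTP, assemble on the membranes of pathogen-containing vacuoles or on bacteria in the cytosol, and help to break these open and to bring in inflammasome sensors and autophagy proteins. Gbp2 and Gbp5 carry a lipid anchor at the C-terminus, added by the prenylation enzymes, which holds them on membranes. In the mouse the genes stand in 2 clusters, one on chromosome 3 and the other on chromosome 5. The order on chromosome 3 is Gbp5, Gbp7, Gbp3, Gbp2b and Gbp2, and that on chromosome 5 is Gbp8, Gbp9, Gbp4, Gbp10, Gbp6 and the pseudogene Gbp11, by the RefSeq gene table of GRCm38.p6. Neither Gbp10 nor Gbp11 had a probe set of its own, and Gbp2b, which has one, is not among the listed genes and serves as the nearest relative beside them.

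Interferon acts on such genes through short promoter elements, the interferon-stimulated response element, which interferon regulatory factors bind, and the gamma-activated site. The RefSeq promoter table of GRCm38.p6 held windows for 5 Gbp genes, those of the chromosome 3 cluster, with 2 starts for Gbp3. The 250 bases before the start are shown for the 3 measured members of that cluster and for Gbp2b, because the members differed by age and Gbp2b is their immediate neighbour. Capitals mark each match to the core of the interferon-stimulated response element, which reads GAAA, any 2 bases and GAAA. The printed strand carries the reverse complement of that core in all 4 promoters.
Gbp2, chr3:142620413-142620662, plus strand: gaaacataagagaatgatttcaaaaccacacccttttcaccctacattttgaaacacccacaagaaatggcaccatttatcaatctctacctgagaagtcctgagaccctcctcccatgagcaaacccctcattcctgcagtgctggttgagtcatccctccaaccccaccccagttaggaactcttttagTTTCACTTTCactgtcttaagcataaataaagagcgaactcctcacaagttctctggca
Gbp3, chr3:142559794-142560043, plus strand: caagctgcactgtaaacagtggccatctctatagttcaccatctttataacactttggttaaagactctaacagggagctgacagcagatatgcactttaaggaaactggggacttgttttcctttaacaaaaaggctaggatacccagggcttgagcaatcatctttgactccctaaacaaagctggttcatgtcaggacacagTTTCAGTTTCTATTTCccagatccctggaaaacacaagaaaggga
Gbp7, chr3:142530086-142530335, plus strand: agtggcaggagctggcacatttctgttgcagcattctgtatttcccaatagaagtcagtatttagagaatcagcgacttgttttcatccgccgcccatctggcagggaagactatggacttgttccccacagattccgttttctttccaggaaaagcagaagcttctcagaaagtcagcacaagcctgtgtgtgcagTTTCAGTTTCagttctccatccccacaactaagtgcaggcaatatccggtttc
Gbp2b, chr3:142594597-142594846, plus strand: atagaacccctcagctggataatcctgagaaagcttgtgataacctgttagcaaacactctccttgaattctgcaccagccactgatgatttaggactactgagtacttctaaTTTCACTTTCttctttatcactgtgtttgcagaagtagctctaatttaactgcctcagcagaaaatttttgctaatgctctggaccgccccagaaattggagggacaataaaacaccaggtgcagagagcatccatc

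The interferon-stimulated response element core was present in the windows of all 5 Gbp genes of the chromosome 3 cluster. Each window ran from 250 bases before to 50 bases after the start, and the core was searched on both strands. Of all 32851 promoter windows in the table, 1131 held it (3.44%), and of all 14452 tested genes with a window, 524 held it (3.63%). In the promoter of Gbp2 the match lay 59 to 50 bases before the start, and in Gbp7 53 to 44 bases before it. Gbp3 had a pair of overlapping matches, from 45 to 30 bases before its first start, and no match at its second start. The matches of Gbp5 and Gbp2b were farther out, at 165 to 156 and 137 to 128 bases before the start. A match of the letters is not a bound site, and which start the follicles used was not measured.

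The gamma-activated site, TTC and GAA with any 3 bases between them, matched in 2 places each in the windows of Gbp7 and Gbp5 and in none of the windows of Gbp2, Gbp3 and Gbp2b, against 8.3% of all windows. In Gbp7 the gamma-activated matches lay 106 to 98 and 87 to 79 bases before the start, upstream of its response element core. The TATA box letters TATAAA, searched on both strands, matched in 1 Gbp window, the first of Gbp3, 207 to 202 bases before the start, against 13.6% of all windows. Of 11 genes with a window that flank the 2 clusters, 1 held the response element core, Pdlim5 on chromosome 3.

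**Figure D1:**
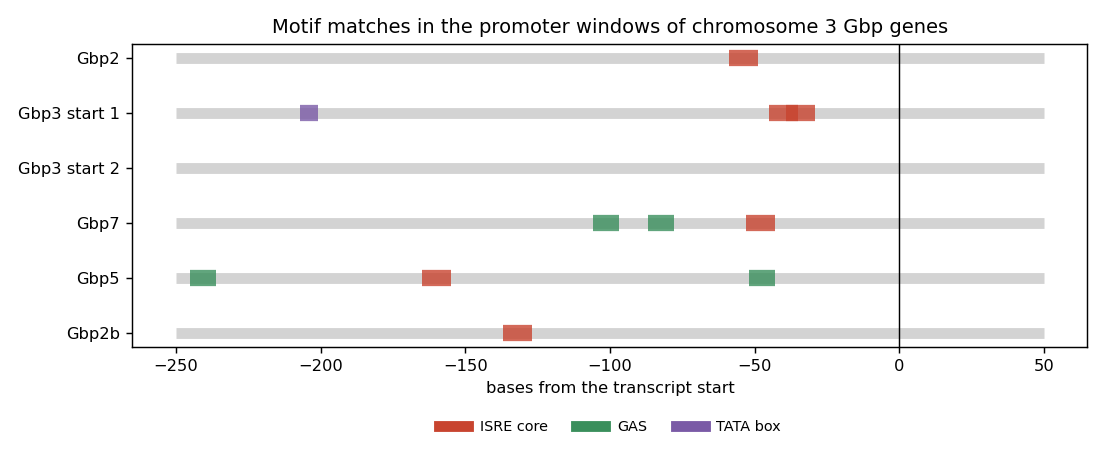
Positions of motif matches (horizontal axis, bases from the transcript start at 0) in the 6 promoter windows of the chromosome 3 Gbp genes, 1 grey bar per window. The interferon-stimulated response element core (ISRE core, red) stands nearest to the start in Gbp2 (59 to 50 bases before it), Gbp7 (53 to 44) and the first start of Gbp3 (45 to 30) and farther away in Gbp5 (165 to 156) and Gbp2b (137 to 128), and gamma-activated site matches (GAS, green) appear in Gbp7 and Gbp5.

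Gbp6, Gbp3, Gbp2 and Gbp7 were 2.98 to 8.63 times as high in old as in young follicles, and Gbp8 was 1.51 times as high at a level near the bottom of the array. Over all 8 probe sets of the 5 genes, every old array lay above every young array. With each gene represented by its brightest probe set, 4 of the 5 genes were called higher and none lower (a call needs a 2-fold change or more and an adjusted p no greater than 0.05), the median difference was 2.39 on the log2 scale, and 5 of 5 had old above young on every array. Over all 18193 genes these shares were 0.638% called higher, 0.126% called lower and 18.9% with every old array above every young array, and the median difference was -0.0042. The same contrast chose the family, so nothing is read from these counts. In whole follicles, more cells of a type that expresses a gene and more RNA per cell cannot be told apart.

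Gbp6, a chromosome 5 member that takes part in defence against intracellular bacteria and parasites, had the largest difference of the measured members at its brightest probe set. Its brightest probe set was at 4.58, 4.38 and 4.33 (log2 intensity) on the 3 young arrays and at 7.45, 7.62 and 7.54 on the 3 old arrays. The old minus young difference was 3.11 (standard error 0.08), a fold of 8.63, and it ranked 10 among all genes by size upward. The lowest old array stood 2.87 above the highest young array. The dimmer probe set of Gbp6 read 2.97, 3.09 and 2.56 in young and 5.03, 5.76 and 5.16 in old follicles, a difference of 2.45 (standard error 0.21). In young follicles that probe set lay between percentiles 13.7 and 24.3 of all probe sets on its array, near the dimmest probe sets there.

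Gbp3 had the next difference and a single probe set, whose name carries the suffix for probes that match several transcripts. This member of the chromosome 3 cluster read 5.81, 5.69 and 5.69 (log2 intensity) in young and 8.69, 8.54 and 8.67 in old follicles. The difference was 2.90 (standard error 0.06), a fold of 7.48, with a gap of 2.73 between the lowest old and the highest young array. In intensity on the linear scale the mean went from 53.1 to 397.4.

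Gbp2, which coats parasite vacuoles and bacteria and acts with the caspase pathways that sense lipopolysaccharide and DNA, followed. Its brightest probe set was at 5.98, 5.92 and 5.83 (log2 intensity) in young and at 8.31, 8.24 and 8.34 in old follicles, a difference of 2.39 (standard error 0.06) and a fold of 5.23. The dimmer probe set gave 5.47, 5.45 and 5.43 in young and 7.56, 7.57 and 7.59 in old follicles, a difference of 2.12 (standard error 0.06). Within each age the arrays of this dimmer probe set differed by at most 0.033, the smallest range of any member probe set. The brightest probe set bears the suffix that Affymetrix gives to probes which may also bind other sequences, and the dimmer one has no such suffix.

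Gbp7, needed for the control of parasites and bacteria inside cells, had the smallest difference of the 4 called members. The brightest probe set read 6.83, 6.89 and 6.84 (log2 intensity) in young and 8.39, 8.47 and 8.43 in old follicles, a difference of 1.57 (standard error 0.05) and a fold of 2.98. The other Gbp7 probe set read 7.03, 6.75 and 6.71 in young and 7.89, 8.07 and 7.92 in old follicles, a difference of 1.13 (standard error 0.10) and a fold of 2.19. At neither probe set did the ages overlap.

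Gbp8 had the smallest difference and was not called. It read 2.94, 3.36 and 2.997 (log2 intensity) in young and 3.48, 4.06 and 3.53 in old follicles, a difference of 0.59 (standard error 0.17) and a fold of 1.51. The ages did not overlap, but the gap between them was 0.12, less than the range of 0.42 among the young and of 0.58 among the old arrays. Among all probe sets of an array it lay at percentiles 21.5 to 29.0 for young and 29.2 to 38.2 for old follicles. The probe set listed for both Gbp8 and Gbp4 read 5.08, 4.97 and 4.60 in young and 5.10, 5.24 and 4.96 in old follicles, a difference of 0.22 (standard error 0.13) with overlapping ages. The annotation pairs this probe set with a transcript accession that RefSeq gives to Gbp4, but lists both symbols, so its value is assigned to neither gene.

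**Figure D2:**
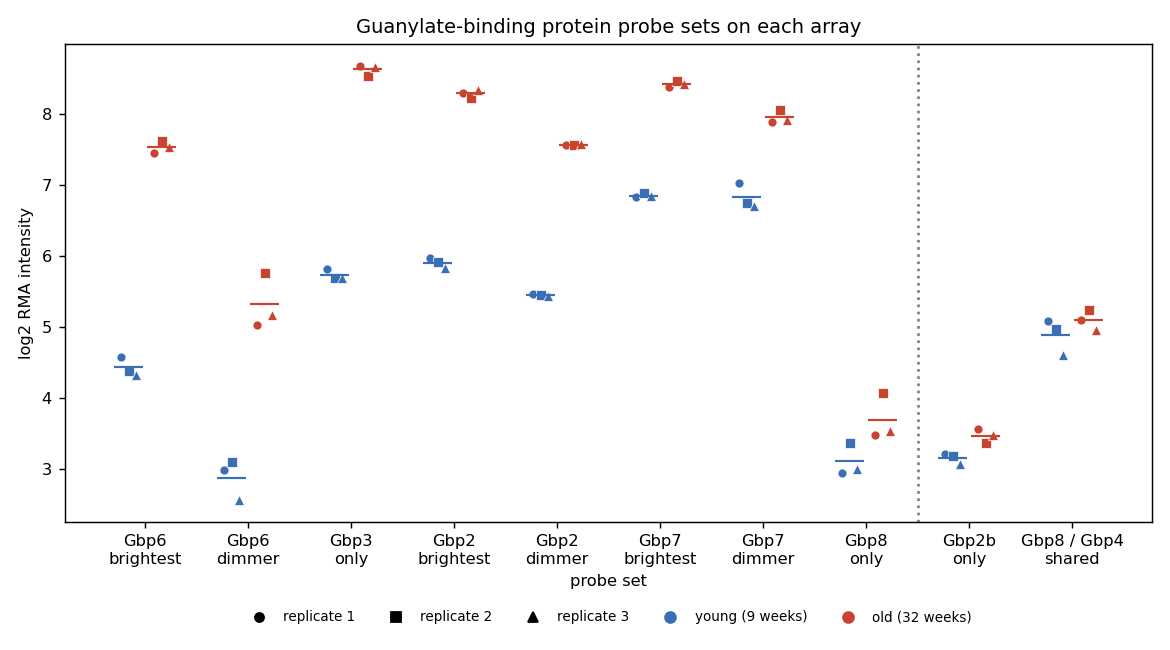
Log2 RMA intensity (vertical axis) of the 8 member probe sets on each of the 6 arrays, with Gbp2b and the probe set shared by Gbp8 and Gbp4 to the right of the dotted line. Blue is young and red is old, the symbol gives the replicate number and the short line the mean of 3 arrays, and the red and blue points are apart for every probe set but the shared one.

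The order of the differences was Gbp6, Gbp3, Gbp2, Gbp7 and Gbp8. Neighbours in that order were set against each other within each array, as the log2 level of the first minus that of the second. Gbp6 minus Gbp3 was -1.23, -1.31 and -1.36 on the young arrays and -1.24, -0.92 and -1.13 on the old arrays, so the ages overlapped and the differences of Gbp6 and Gbp3 were not apart beyond the spread. Gbp3 minus Gbp2 went from -0.18 ± 0.046 to 0.34 ± 0.037 (SD, n = 3 each) without overlap. Gbp2 minus Gbp7 went from -0.95 ± 0.083 to -0.13 ± 0.089, also without overlap. No such comparison is given for Gbp7 and Gbp8, since Gbp8 lay near the bottom of the array. Only the change of such a value with age is read here, since the level of a probe set cannot be compared with that of another. The change depends on the probe set too, as the probe sets of Gbp6 differed in it by 0.66. A lack of overlap therefore concerns the probe sets used, on these arrays, and does not rank the genes.

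Where a gene had 2 probe sets, the brightest gave the larger difference, by 0.66 on the log2 scale for Gbp6, 0.44 for Gbp7 and 0.26 for Gbp2. With the probe sets of a gene averaged the differences were 2.78 for Gbp6, 2.25 for Gbp2 and 1.35 for Gbp7. With 16 added to each intensity before log2, which damps dim probe sets, Gbp6 stood at 2.43, Gbp3 at 2.58, Gbp2 at 2.12, Gbp7 at 1.45 and Gbp8 at 0.24. Both settings put Gbp3 (2.90 where probe sets were averaged) ahead of Gbp6, and the added 16 moved Gbp8 by more than 1.5 times.

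Among the old arrays the members did not share 1 highest replicate. Old replicate 2 was the highest old array for both probe sets of Gbp6, both of Gbp7 and that of Gbp8, and the lowest for Gbp3 and for the brightest probe set of Gbp2. The spread was widest for the dimmer probe set of Gbp6, at 0.73 among the old arrays, and for Gbp8. Leaving out any 1 of the 6 arrays kept the median difference of the 5 members between 2.35 and 2.42.

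No gene beside the 2 clusters was called. Over all 18193 genes, 0.638% were called higher and 0.126% lower. At shares that small, a lack of calls among a few genes is not read as a result, here or in the lists below. Of the 12 measured genes nearest to the clusters, 3 on each side, limma called 0, SAM (significance analysis of microarrays) called 0, and the highest difference at the brightest probe set was 0.26 on the log2 scale. On chromosome 3, Unc5c, a netrin receptor, was at -0.03 (standard error 0.06), Bmpr1b, a receptor for bone morphogenetic proteins, at -0.01 (0.05 as standard error), and Pdlim5, a cytoskeletal adaptor, at 0.14. Pdlim5 has 7 probe sets, and at the brightest one without a name suffix it was at 0.69 (adjusted p = 0.0073 from limma). Beyond Gbp2, Kyat3, a kynurenine aminotransferase, was at -0.09. The next 2 genes were lower in old follicles at a fold under 2, Gtf2b, a general factor of RNA polymerase II (-0.42, adjusted p = 0.0049 from limma), and the kinase gene Pkn2 (-0.89, adjusted p = 1.2e-04 from limma, or -0.54 with its probe sets averaged).

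On chromosome 5, Abcg3, a transporter gene beside the cluster, was at 0.20 (standard error 0.08, adjusted p = 0.12 from limma), and Zfp33b, a zinc-finger gene, was at 0.08. Thoc2l was at -0.56 (adjusted p = 0.028 from limma). Past Gbp6 came Gm26519 at 0.26 (adjusted p = 0.029 from limma), 4930542N06Rik at 0.16 and Lrrc8c, a subunit of the volume-regulated anion channel, at 0.14. Averaged over its 2 probe sets, Lrrc8c was at -0.26 (adjusted p = 0.064). Before adjustment, 4 of the 12 had p below 0.05 in limma upward and 3 downward. Of all 18193 genes, 1835 had an adjusted p of at most 0.05 upward and 2422 downward in limma, at any fold. Counts at p below 0.05 here and in the lists below stand against that wide background, whose own count before adjustment is not given.

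Inside the chromosome 3 cluster, Gbp2b, which lies between Gbp3 and Gbp2, read 3.21, 3.18 and 3.06 (log2 intensity) in young and 3.56, 3.36 and 3.47 in old follicles. The difference was 0.31 (standard error 0.07, adjusted p = 0.019 from limma), below the 2-fold limit, and the adjusted p ran from 0.0079 to 0.062 over the alternatives tried. Its values lay between percentiles 23.6 and 30.4 of all probe sets on their arrays.

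**Figure D3:**
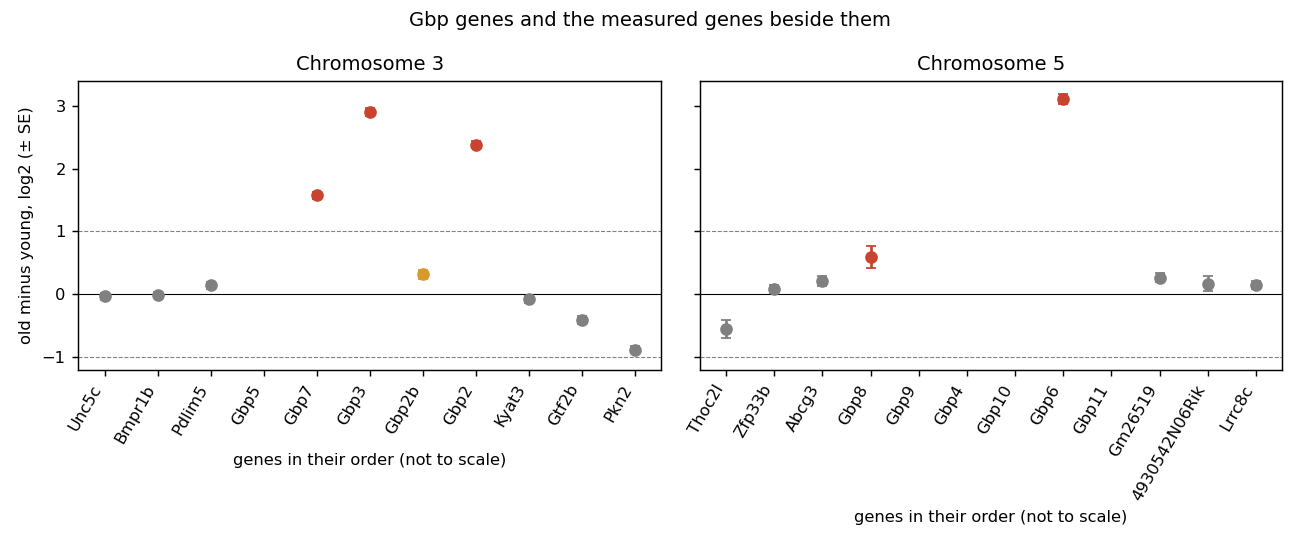
Old minus young difference (vertical axis, log2, ± standard error of the fit) for the Gbp genes and the 3 nearest measured genes on each side, in their order along chromosome 3 (left) and chromosome 5 (right), with names but no point for Gbp genes that no single probe set read. Red marks the members, ochre Gbp2b and grey the flanking genes, and dashed lines mark a fold of 2. Gbp7, Gbp3, Gbp2 and Gbp6 rise above the upper line while the genes on either side lie between the lines.

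The immunity-related GTPases, the other GTPase family that interferon induces and that loads onto the same vacuoles, were higher in old follicles in most of the measured genes. Of 7 measured genes, 6 were higher at a fold of at least 2, none was lower and 1 was not called, with a median difference of 1.90. Iigp1, which coats parasite vacuoles, had 3.21 (standard error 0.09, adjusted p = 2.6e-06 from limma). The regulators Irgm1, Igtp and Irgm2, which keep the effector GTPases off the cell's own membranes, had 1.72, 1.79 and 1.90 (adjusted p = 4.4e-06, 8.2e-06 and 1.5e-05 from limma). Of the 4 of these GTPases with a promoter window, 3 held the response element core, Igtp, Irgm1 and Irgm2.

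Of 11 other measured dynamin-superfamily GTPases, 1 was called higher, Mx2, an interferon-induced antiviral GTPase (1.14, standard error 0.11, adjusted p = 8.2e-04 from limma), and none was lower. The list's median was 0.0039 and its lowest value -0.36. With 16 added before log2, Mx2 stood at 0.85 and no gene of this list was called.

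Transcripts of interferons and their receptors were not called in either direction, against 0.638% of all genes called higher and 0.126% lower. Of 11 measured genes limma called 0 and SAM 0. At an adjusted p of at most 0.05 and any fold, limma put 1 higher and 1 lower. Ifng, the gene of interferon gamma and the strongest known inducer of the family, was at 1.96 ± 0.079 in young and 1.94 ± 0.047 in old follicles (log2 intensity, SD, n = 3 each), below the lower quartile of 3.13 to 3.24 on these arrays. Ifnb1 was at 3.23 ± 0.16 and 3.11 ± 0.26. Ifna2 was at 0.53 (standard error 0.08, adjusted p = 0.0038 from limma) and Ifnar2, a subunit of the type I receptor, at -0.20 (adjusted p = 0.045 from limma), but the mean over the probe sets of Ifnar2 was 0.07.

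Among the genes that carry the interferon signal, 4 of 19 measured were higher, none was lower and the median was 0.13. Usp18, an enzyme that removes ISG15 and damps the type I receptor, had 4.14 (standard error 0.16, adjusted p = 9.6e-06 from limma). The transcription factor Irf7 had 2.33 (adjusted p = 2.2e-04 from limma), Irf9, another interferon regulatory factor, 1.14 (adjusted p = 8.5e-05) and the feedback inhibitor Socs3 1.08 (adjusted p = 2.7e-04). Irf1, the factor that interferon gamma induces upstream of the Gbp genes, was at 8.94 ± 0.046 in young and 8.97 ± 0.10 in old follicles (log2 intensity, SD, n = 3 each), a difference of 0.02 (adjusted p = 0.83 from limma). With suffixed probe sets left out 1 of these genes was called, since Irf7 and Irf9 then had no probe set and Socs3 was at 0.84. With probe sets averaged 3 were called, and Socs3 was at 0.92. With 16 added before log2, 2 were called, and Irf9 (0.96) and Socs3 (0.95) were below a 2-fold change.

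In 3 lists of genes taken for partners of Gbp proteins none was called. Over all 18193 genes, 0.638% were called higher and 0.126% lower, so the lack of calls alone says little. Of 12 measured genes of the caspase-11 inflammasome and other inflammasomes, neither limma nor SAM called any, and the median was 0.30. At an adjusted p of at most 0.05 and any fold, limma put 4 higher and 0 lower, against 1835 and 2422 of all 18193 genes. In 10 of the 12 every old array lay above every young array, against 18.9% of all genes. Casp4, the gene of caspase-11, was nearest at 0.89 (standard error 0.09, adjusted p = 7.9e-04 from limma), and the adaptor gene Pycard was at 0.49 (adjusted p = 0.0037), or 0.29 with its probe sets averaged. Of 11 genes of ATG8 proteins and of their conjugation, which helps to place the GTPases on vacuoles, neither tool called any. At an adjusted p of at most 0.05 and any fold, limma put 1 higher and 3 lower. Atg5 was at -0.47 (adjusted p = 0.0033 from limma) and Map1lc3a at 0.34 (adjusted p = 0.0097), or 0.15 with its probe sets averaged and -0.05 without suffixed ones. Neither tool called any of 8 prenylation genes, and limma put 0 higher and 1 lower at that adjusted p. The smallest p-values there were those of Rabggtb (-0.45, adjusted p = 0.0048) and Fnta (0.14, adjusted p = 0.11). Which of these enzymes act on Gbp proteins was not examined.

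**Figure D4:**
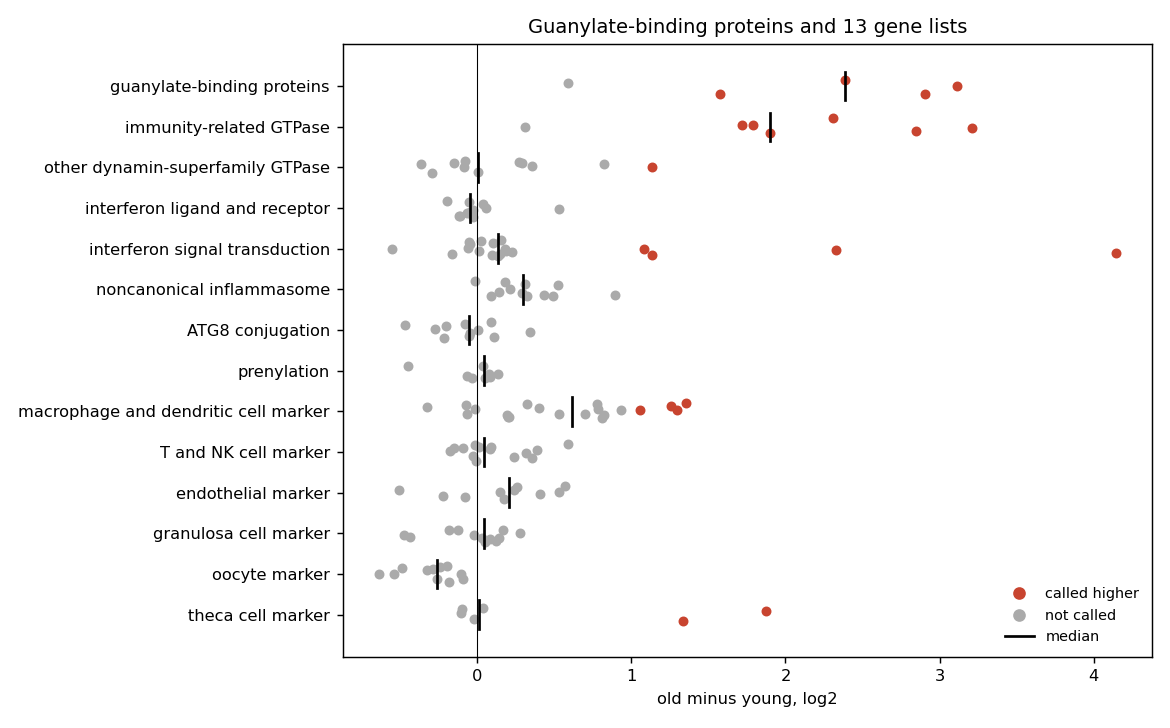
Old minus young difference (horizontal axis, log2) of each gene, 1 point per gene at its brightest probe set, for the guanylate-binding proteins and 13 lists, with a black line at each median. Red points passed a fold of 2 and an adjusted p of 0.05 upward, and the medians of the guanylate-binding proteins (2.39) and the immunity-related GTPases (1.90) are the farthest to the right.

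Markers of macrophages and dendritic cells, which express Gbp genes, included some that were higher on the same old arrays. Of 20 measured markers, 4 were called higher, Ctss (1.36), Mpeg1 (1.30), Cd52 (1.26) and Ms4a7 (1.06), none was called lower, and the median was 0.62. At an adjusted p of at most 0.05 and any fold, limma put 13 higher and 1 lower, against 1835 and 2422 of all 18193 genes. That 1 was Lyz2, the gene of lysozyme, at -0.32 (adjusted p = 0.016 from limma), with every old array below every young array. Lyz2 was named after its value was seen. With 16 added before log2, Cd52 (0.87) and Ms4a7 (0.77) were not called. The mean log2 level of the list ran from 4.53 to 4.54 on the young and from 5.06 to 5.12 on the old arrays. The receptor Csf1r went from 5.48 ± 0.16 to 6.26 ± 0.12 (SD, n = 3 each), a difference of 0.78 that was 0.36 with its probe sets averaged, while Adgre1, the gene of F4/80, was at 3.31 ± 0.081 and 3.51 ± 0.24. The 4 called members differed by 1.57 to 3.11, and the part of these cells in that was not tested.

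Neither limma nor SAM called any of 14 T and NK cell markers. At an adjusted p of at most 0.05 and any fold, limma put 2 higher and 0 lower, against 1835 and 2422 of all 18193 genes. The mean level of the list was 3.57 to 3.65 on the young and 3.66 to 3.75 on the old arrays. Nkg7 was at 0.59 and Klrk1 at 0.39. Cd3e was at 4.01 and 4.09, and Cd8a at 3.92 and 3.91 (log2 intensity, young and old). The same tools called none of 10 endothelial markers, and limma put 5 higher and 1 lower at that adjusted p. Esam was at 0.57, Cldn5 at 0.53 and Pecam1 at -0.22.

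The follicle's own cells were present at both ages. Gdf9, the oocyte's growth factor, was at 12.26 in young and 12.06 in old follicles, and Fshr, the granulosa receptor for follicle-stimulating hormone, at 7.88 and 8.04 (log2 intensity). None of 12 granulosa and none of 11 oocyte markers was called by limma or SAM. Before adjustment limma gave p below 0.05 to 3 granulosa markers upward and 3 downward, and to 0 oocyte markers upward and 9 downward. At an adjusted p of at most 0.05 and any fold, limma put 9 oocyte markers lower, against 2422 of all 18193 genes. All 11 oocyte markers were lower on every old array than on every young array, and the share of all genes so placed is not given here. The smallest p-values were those of Kitl (-0.43) and Esr2 (-0.47) among granulosa markers and of Zp3 (-0.54) and Kit (-0.49, or -0.24 with its probe sets averaged) among oocyte markers. Of 6 theca markers 2 were higher, Star (1.87) and Cyp11a1 (1.34, or 0.48 with its probe sets averaged), which start steroid synthesis, and Cyp17a1, specific to theca cells in the ovary, was at -0.11.

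The 2 ages also stood apart in the ratio of 3' to 5' control signal, which is read as a sign of RNA quality. The Gapdh probe set at the 3' end was above that at the 5' end by 0.47 ± 0.014 in young and 1.51 ± 0.0048 in old samples (log2, SD, n = 3 each), and that of beta-actin by 1.48 ± 0.033 and 2.53 ± 0.050. For each the two-sided exact permutation p was 0.1, and no smaller p can be had with 3 samples against 3. The part of this in the Gbp values was not tested.

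Over the 6 arrays, the genes whose profile lay nearest to the mean profile of the 5 members were Parp14, Btg2, Oas1a, Ifit2, Zfp36, Irgm2, Star and Isg20. Likeness was the root mean square distance between profiles after each gene's own mean was subtracted, which gives weight to the size of the age difference. It was 0.06 for Parp14, 0.07 for Btg2, 0.10 for Oas1a, 0.10 for Ifit2, 0.11 for Zfp36, 0.13 for Irgm2, 0.14 for Star and 0.15 for Isg20 on the log2 scale. The mean profile of the members had an age difference of 2.11, and those of the 8 genes ran from 1.87 to 2.25. Parp14, Oas1a, Ifit2, Irgm2 and Isg20 are known interferon-induced genes, Btg2 and Zfp36 immediate-early genes, and Star carries cholesterol into mitochondria.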

How the data were processed

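RNA of 6 samples of mouse ovarian secondary follicles, 3 young and 3 old, was measured on Affymetrix 3' expression arrays. The authors processed the scans with RMA (no version stated in the sources at hand) and deposited intensity values on a linear scale. Every intensity was above 0, and log2 was taken with no offset. Arrays carry no read depth.

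Probe sets were named by the platform's annotation with symbols updated through the RefSeq gene table of GRCm38.p6, and each gene was represented by its brightest probe set. Old and young samples were compared over 18193 genes by moderated linear models (limma 3.58.1, R 4.3.3) with two-sided p-values adjusted after Benjamini and Hochberg. A call needed a 2-fold change or more and an adjusted p no greater than 0.05. SAM, the method of the paper, was rewritten and run as an alternative. The steps were tested on simulated data. The 3' to 5' control values were compared by exact permutation.

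The members, lists, motifs and alternatives were chosen with earlier results of these data known. The genes named are the members, Gbp2b, the flanking genes, markers and interferon genes fixed by name, the 8 most alike genes, and in each list the called genes (4 with the smallest p where over 5 were called, 2 where none was). Alternatives covered SAM, the choice of probe sets (averaged, or without names ending in _s_at, _x_at or _a_at), removal of dim genes, 2 normalizations, an offset, another prior, array weights, the replicate number as a block, a fold minimum of 1.5 and leaving out each sample. These suffixes are for probes that match several transcripts (as _a_at) or may also bind other sequences (as _x_at). Proteins were not used here.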

Additional observations from a re-analysis of the deposited data

How the results depend on the processing

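Gbp6, Gbp3, Gbp2 and Gbp7 were called under every alternative that tested them, and the count was 5 at a fold minimum of 1.5, which adds Gbp8. Leaving out probe sets whose names end in _s_at, _x_at or _a_at left Gbp3 with none, and the count was 3. The suffix of Gbp3 is the one for probes that match several transcripts. The median difference of the measured members was 2.25 with probe sets averaged, 1.85 without suffixed probe sets, 2.65 after a filter on dim genes, which dropped Gbp8, and 2.12 with 16 added before log2. The replicate numbers did not pair the samples (r of deviations 0.053, -0.00030 and 0.043), and with the replicate number as a block 117 genes were called higher and 23 lower, against 116 and 23, with no Gbp call changed.

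SAM called 117 genes higher and 23 lower, and 13 were lower with probe sets averaged. The SAM counts are per gene, each at its brightest probe set of a single symbol. They do not reproduce those of the paper, whose SAM run gave more genes in both directions, most of all lower ones. The reason was not tested. At a fold minimum of 1.5, 383 genes were higher and 234 lower, and the lists held 2 other dynamin-superfamily, 1 inflammasome, 10 macrophage and dendritic cell, 1 T and NK cell and 1 oocyte gene. Averaging probe sets left 1 theca, 3 signal transduction and 3 macrophage and dendritic cell genes called. Without suffixed probe sets 1 signal transduction gene was called, with no probe set left for Irf7 and Irf9. With 16 added, 0 other dynamin-superfamily, 2 signal transduction and 2 macrophage genes were called. Leaving out each sample gave 116 to 122 higher and 21 to 26 lower genes. Ms4a7 fell under a fold of 2 without young replicate 1 (0.92), without old replicate 3 (0.997), with array weights (0.97), with probe sets averaged (0.69) and with 16 added (0.77).

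With 16 added, dim genes had smaller differences, as Gbp2b (0.12), Gm26519 (0.058), Ifna2 (0.22), Casp4 (0.43), Nkg7 (0.23) and Klrk1 (0.16). Genes that were not called changed sign under some settings. With probe sets averaged, Ifnar2 stood at 0.073, Cd8a at 0.033, Unc5c at 0.075 and Lrrc8c at -0.26. Without suffixed probe sets, Map1lc3a stood at -0.048 and Fnta at -0.013. Unc5c and Bmpr1b were at 0.028 and 0.033 after quantile normalization and at 0.020 and 0.032 after cyclic loess. Irf1 was at -0.0089 with array weights and ran from -0.022 (without old replicate 2) to 0.077 with 1 sample left out. The same range was -0.072 to 0.0010 for Ifng (above 0 without young replicate 1), -0.077 to 0.045 for Cd8a (above 0 without young replicate 2 or 3 or old replicate 2), -0.030 to 0.00049 for Bmpr1b (above 0 without young replicate 2) and -0.23 to 0.023 for Ifnb1 (above 0 without old replicate 1). The cause was not tested. Dim probe sets such as that of Gbp8 limit what a difference can show.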

Other observations

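Among all genes, Gbp2, Gbp3 and Gbp7 included, the interferon-stimulated response element core was found in the promoter windows of 24 of 82 genes called higher in old follicles that had a window (29.3%), and in 0 of 13 called lower. Over all 14452 tested genes with a window, 524 held it (3.63%). The gamma-activated site was found in 14 of the 82 (17.1%) and in 4 of the 13 (30.8%), against 8.57% of all tested genes with a window. Of the 8 genes with the profile most like the Gbp members, 6 had a window, and 2 of them held the response element core while 5 held the gamma-activated site. These shares are descriptions with no test, and genes with several starts have more than 1 window in which a match can fall.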
